A study of Mus musculus with 16 samples.

Results

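A set of 28 genes that encode the enzymes of cholesterol synthesis, the enzymes of fatty acid synthesis and the proteins that set their transcription was followed across 4 mouse genotypes. The genes were taken by symbol as members of these pathways, and the set was drawn up with earlier results of these data known. All 28 symbols were found among the 45796 genes of the count table, and all 28 were among the 16430 genes with enough counts to be tested. They fall into 7 enzymes from acetyl-CoA to farnesyl diphosphate (Acat2, Hmgcs1, Mvk, Pmvk, Mvd, Idi1, Fdps), 11 enzymes from squalene to cholesterol (Fdft1, Sqle, Lss, Cyp51, Tm7sf2, Msmo1, Nsdhl, Hsd17b7, Ebp, Sc5d, Dhcr7), 6 fatty acid enzymes (Acly, Acaca, Fasn, Elovl6, Scd1, Scd2) and 4 regulators or carriers (Insig1, Srebf1, Srebf2, Stard4).

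The libraries, 16 in all and 4 per genotype, hold bulk RNA of stromal cells from bone marrow, adherent cells that lay down mineralized nodules in osteogenic medium. The donors were male C57BL/6J littermates aged 12 weeks, and RNA was taken on day 21, with β-glycerophosphate at 10 mM and ascorbic acid at 50 µg/ml in the medium. Every mouse, WT included, was homozygous for the floxed Fgf23 allele. Dmp1KO/Fgf23cKO mice were Dmp1-/- Fgf23 fl/fl with the Dmp1-cre transgene, Dmp1KO mice were Dmp1-/- Fgf23 fl/fl without Cre, Fgf23cKO mice were Dmp1+/+ Fgf23 fl/fl with Dmp1-cre, and WT mice were Dmp1+/+ Fgf23 fl/fl without Cre. The Dmp1 allele is a knockout in all cells, whereas the Dmp1 promoter drives Cre in mature osteoblasts and osteocytes, so Fgf23 is lost from those cells. Presence of Cre and loss of Fgf23 go together in these libraries and cannot be told apart. The paper reports a similar overall phenotype in mice with Cre and an unfloxed Fgf23 allele. The paper names fewer mice than libraries per genotype for this assay, so libraries of a genotype may share an animal, and p-values measure the spread between libraries.

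Cholesterol is built from acetyl-CoA through mevalonate, isoprenoid diphosphates, squalene and lanosterol, and the same acetyl-CoA pool feeds fatty acid synthesis. Most of these enzymes are transcribed under the sterol regulatory element binding proteins (SREBPs), membrane-bound factors that are held in the endoplasmic reticulum by Insig proteins when sterols are plentiful and are cleaved and sent to the nucleus when sterols are scarce. In bone, farnesyl diphosphate synthase (Fdps) is best known as the target of nitrogen-containing bisphosphonates, and isoprenoid and sterol supply is known to bear on osteoblast and osteoclast function.

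Because these genes are known for shared promoter elements, RefSeq promoter windows (GRCm38.p6, 250 bases before to 50 after a transcription start, on the gene's strand) were read for the 22 members that matched, which had 27 windows. The members not matched were Fdft1, Fdps, Sqle, Scd1, Scd2 and Stard4. A sterol regulatory element-like word was written TCACNCCA and the CCAAT box as CCAAT, both searched on both strands, and a CCAAT box on the other strand reads ATTGG. Windows of 5 members with low values in Dmp1KO (Hmgcs1, Idi1, Msmo1, Nsdhl and Hsd17b7) are shown for their matches, together with Mvk, which has the most CCAAT boxes and was not called, and Acat2, which was called lower and has no match of either word. Capitals mark the matches of both words.
Hmgcs1, chr13:119690101-119690400 on the plus strand: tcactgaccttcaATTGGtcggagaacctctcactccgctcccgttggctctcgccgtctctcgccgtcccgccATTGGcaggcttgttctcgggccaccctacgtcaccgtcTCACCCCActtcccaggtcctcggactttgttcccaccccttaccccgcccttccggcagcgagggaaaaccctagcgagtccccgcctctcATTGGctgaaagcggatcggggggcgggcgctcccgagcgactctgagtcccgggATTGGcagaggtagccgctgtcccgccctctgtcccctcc
Idi1, chr13:8885356-8885655 on the plus strand: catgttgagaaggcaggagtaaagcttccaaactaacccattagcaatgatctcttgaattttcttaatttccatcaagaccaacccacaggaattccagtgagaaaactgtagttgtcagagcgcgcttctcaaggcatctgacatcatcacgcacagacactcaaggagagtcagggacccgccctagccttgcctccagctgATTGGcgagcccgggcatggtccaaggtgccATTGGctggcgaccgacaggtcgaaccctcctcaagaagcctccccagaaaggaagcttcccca
Msmo1, chr8:64733529-64733828 on the minus strand: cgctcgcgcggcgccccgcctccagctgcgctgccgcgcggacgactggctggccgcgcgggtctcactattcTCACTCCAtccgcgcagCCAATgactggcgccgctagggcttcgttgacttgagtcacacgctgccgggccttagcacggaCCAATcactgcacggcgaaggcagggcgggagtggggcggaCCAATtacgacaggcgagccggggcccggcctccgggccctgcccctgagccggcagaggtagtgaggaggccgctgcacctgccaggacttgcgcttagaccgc
Nsdhl, chrX:72918271-72918570 on the plus strand: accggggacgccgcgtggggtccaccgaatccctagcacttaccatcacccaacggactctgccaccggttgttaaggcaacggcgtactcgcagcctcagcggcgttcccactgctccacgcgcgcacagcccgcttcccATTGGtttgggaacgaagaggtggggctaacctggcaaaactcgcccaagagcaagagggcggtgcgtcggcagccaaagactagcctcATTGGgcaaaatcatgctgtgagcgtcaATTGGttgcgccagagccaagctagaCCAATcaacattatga
Hsd17b7, chr1:169969156-169969455 on the minus strand: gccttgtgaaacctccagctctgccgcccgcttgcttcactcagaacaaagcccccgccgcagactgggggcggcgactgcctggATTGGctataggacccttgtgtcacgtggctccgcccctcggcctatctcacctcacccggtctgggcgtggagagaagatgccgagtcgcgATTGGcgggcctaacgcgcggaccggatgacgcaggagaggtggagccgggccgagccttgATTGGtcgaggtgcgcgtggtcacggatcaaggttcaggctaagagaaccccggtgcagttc
Mvk, chr5:114444019-114444318 on the plus strand: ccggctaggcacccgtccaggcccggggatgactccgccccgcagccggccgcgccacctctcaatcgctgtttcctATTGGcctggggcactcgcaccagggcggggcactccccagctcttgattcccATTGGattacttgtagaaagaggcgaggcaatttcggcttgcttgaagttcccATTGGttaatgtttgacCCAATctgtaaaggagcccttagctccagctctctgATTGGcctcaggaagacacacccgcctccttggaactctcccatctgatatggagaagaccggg
Acat2, chr17:12960676-12960975 on the minus strand: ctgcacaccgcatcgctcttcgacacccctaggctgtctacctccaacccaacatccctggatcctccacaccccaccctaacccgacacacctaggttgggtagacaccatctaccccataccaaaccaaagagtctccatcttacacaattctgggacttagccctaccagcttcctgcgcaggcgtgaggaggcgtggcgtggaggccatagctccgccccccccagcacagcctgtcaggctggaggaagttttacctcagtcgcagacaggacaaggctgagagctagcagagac

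The CCAAT box was found in 19 of the 22 members and in 14 of the 15 sterol pathway enzymes with a window (all but Acat2), against 42.3% of the 17492 protein-coding genes in the table. At least 2 boxes in 1 window were found in 10 of the 22 members, or 45.5%, against 14.6% of protein-coding genes, and at least 3 boxes in 6 members (Hmgcs1, Mvk, Msmo1, Nsdhl, Hsd17b7 and Fasn), or 27.3%, against 4.54%. Fasn held 1 pair of CCAAT boxes that overlap on opposite strands, and no other matches overlapped. The SRE-like word was found in Hmgcs1, Msmo1 and Srebf2, which is 3 of 22 members against 4.66% of protein-coding genes. Relative to the transcription start, its first base lay at -137 in Hmgcs1, at -177 in Msmo1 and at -162 in Srebf2. The E-box CACGTG was found in 4 members (Hsd17b7, Sc5d, Dhcr7 and Insig1) against 8.91% of protein-coding genes, and the GC box GGGCGG in 18 against 49.2%. Among the 15 sterol pathway enzymes with a window the GC box was as frequent as the CCAAT box, in 14. A match is a description of the letters and not a measured binding site.

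**Figure D1:**
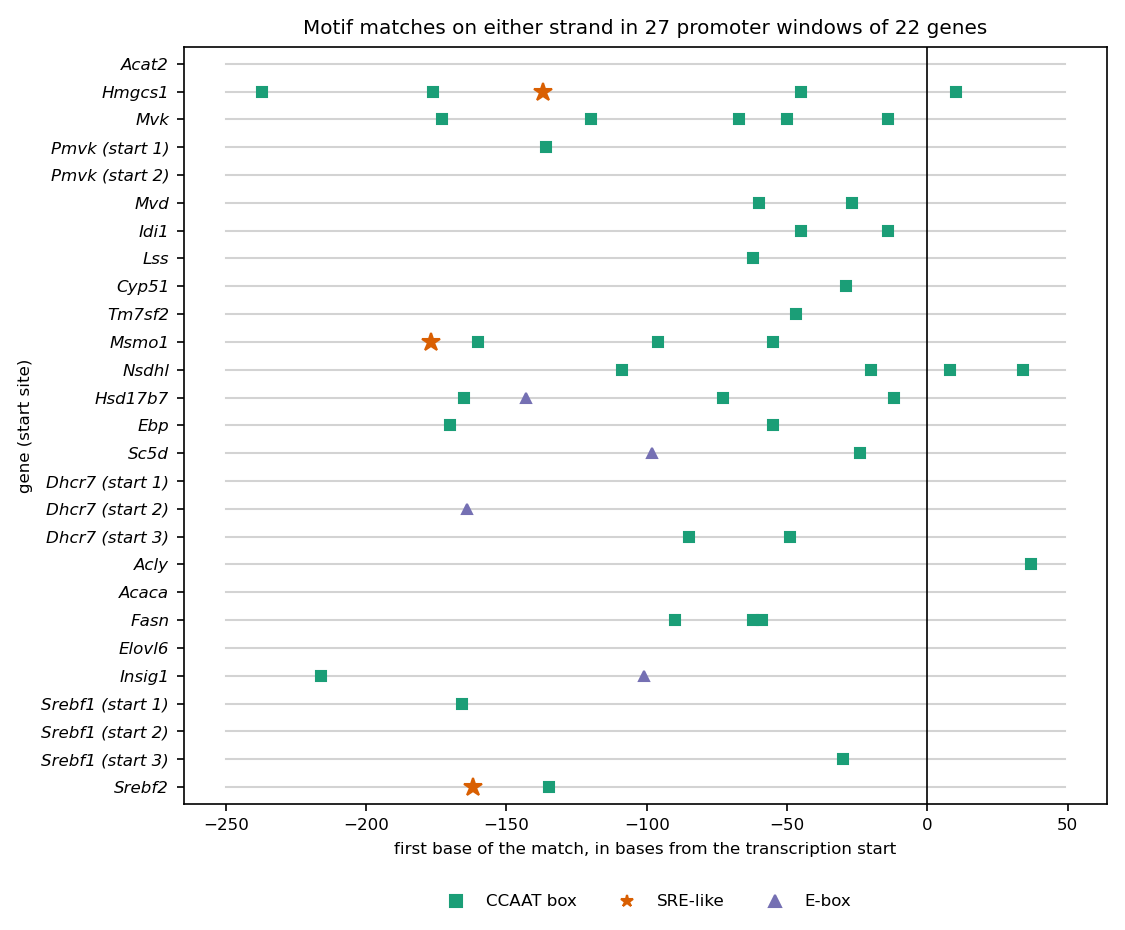
Motif matches in the 27 promoter windows of 22 genes, in pathway order from top to bottom. The horizontal axis gives the first base of each match in bases from the transcription start (0), and symbols mark CCAAT boxes, SRE-like words and E-boxes on either strand. CCAAT boxes stand in 19 of the 22 genes, and the SRE-like word in Hmgcs1, Msmo1 and Srebf2.

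Library totals lay between 61.9 M and 79.5 M expected counts (M, the prefix mega). Levels below are CPM, counts scaled per M of a total adjusted by TMM, which corrects for library composition. Fgf23 stood between 0.029 and 0.0996 CPM in Dmp1KO/Fgf23cKO libraries, between 1.63 and 6.19 CPM in Dmp1KO, between 0.0128 and 0.0553 CPM in Fgf23cKO and between 0.633 and 1.08 CPM in WT, and Dmp1 between 41.2 and 108.5 CPM in the 8 libraries from Dmp1-/- mice against 329 to 1396 CPM in the others. Osteoblast genes marked the cultures, with Col1a1 (type I collagen) at 24879 CPM or more in every library. Dmp1KO/Fgf23cKO libraries stood in pairs, with Col1a1 at 31935 and 25572 CPM in libraries 1 and 2 against 125560 and 90710 CPM in libraries 3 and 4, and library 4 had the lowest total of the series. Counts that rest on Dmp1KO/Fgf23cKO are therefore given below with each pair left out, a choice made after seeing the data. In these mixed cultures fewer cells of a type and less RNA per cell cannot be told apart.

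Per kilobase of annotated exon, the levels of the members differed widely. Scd2, a stearoyl-CoA desaturase, stood highest in each genotype, with a mean of 97.3 CPM per kb in Dmp1KO/Fgf23cKO, 86.7 in Dmp1KO, 59.3 in Fgf23cKO and 71.6 in WT. Among sterol pathway enzymes Hmgcs1, the enzyme that makes HMG-CoA, was highest in Dmp1KO/Fgf23cKO, Fgf23cKO and WT, with 31.0, 28.2 and 34.6 CPM per kb, but not in Dmp1KO, where Ebp had 18.4 and Hmgcs1 had 18.3. Tm7sf2, a sterol reductase, was lowest of the 28 in each genotype, with 1.01 CPM per kb in Dmp1KO/Fgf23cKO, 0.769 in Dmp1KO, 0.92 in Fgf23cKO and 0.989 in WT.

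Dmp1KO was compared with WT to ask what loss of Dmp1, with the FGF23 excess that goes with it, did to these genes. Of the 28 members, 14 were lower and none was higher in Dmp1KO by edgeR's quasi-likelihood test (adjusted p under 0.05 over all genes tested), where 15.8% of all tested genes were lower and 18% higher. DESeq2 called the same 14 with Cyp51 and Srebf2, where it called 19% of genes lower. The lower genes were 11 of the 18 sterol pathway enzymes, namely Acat2, Hmgcs1, Mvd, Idi1 and Fdps of the early steps and Fdft1, Lss, Msmo1, Nsdhl, Hsd17b7 and Sc5d of the late steps, together with Fasn, Insig1 and Stard4. The median log2 change was -0.42 over the 28 members and -0.53 over the 18 sterol pathway enzymes, against -0.02 over all tested genes, and -0.10 over the 6 fatty acid enzymes. For 14 members every Dmp1KO library lay below every WT library, which held for 19.1% of all tested genes.

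**Figure D2:**
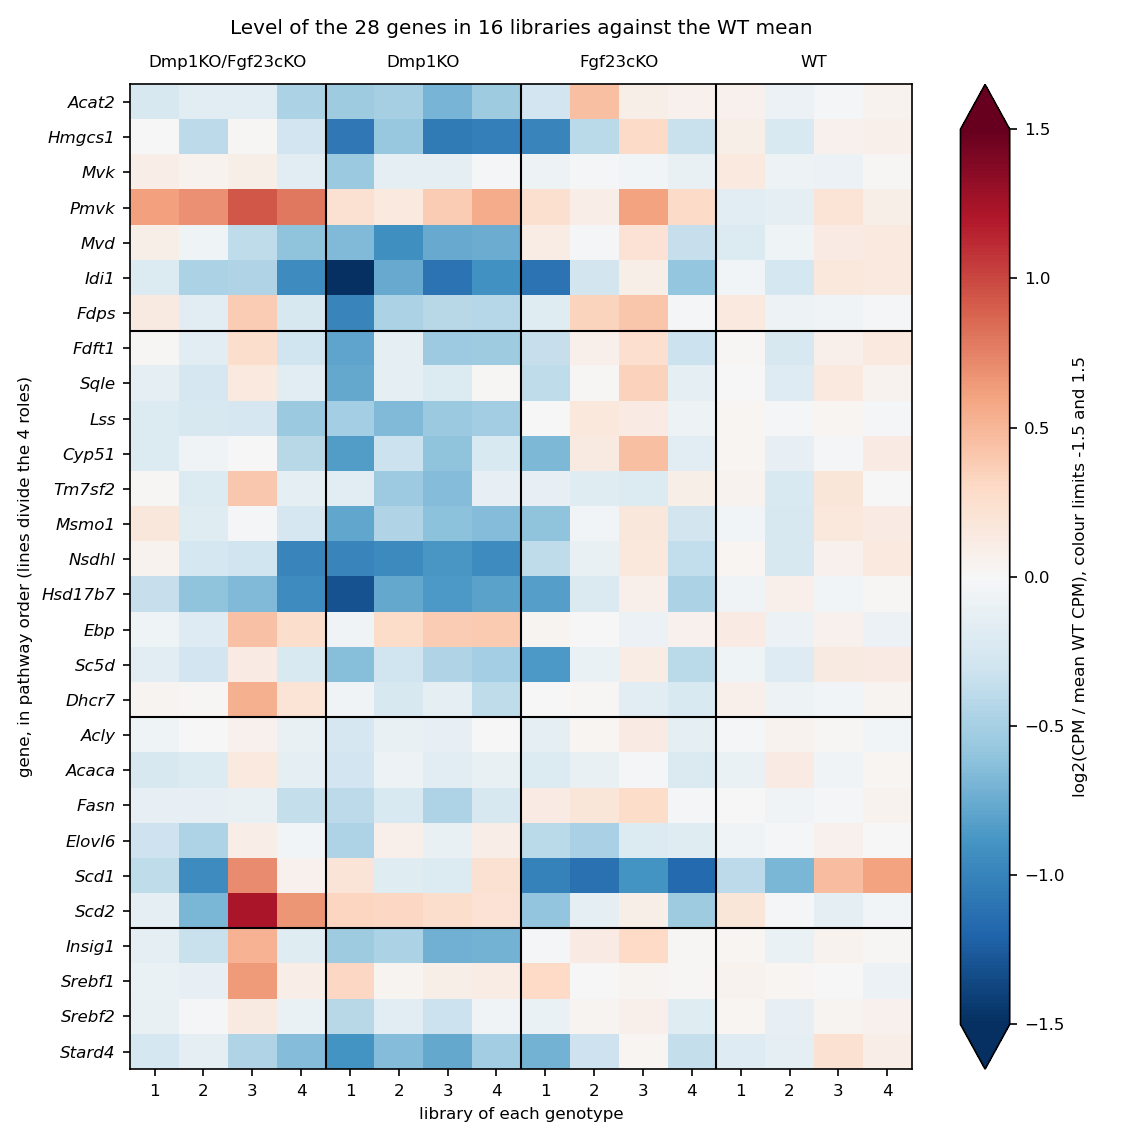
Level of each of the 28 genes in each of the 16 libraries as log2 CPM minus the mean log2 CPM of WT, with genes in pathway order from top to bottom and libraries grouped by genotype from left to right. Blue is below and red above the WT mean, and black lines divide genotypes and roles. The Dmp1KO block is blue over most sterol pathway enzymes, with a lowest value of -1.80 for Idi1 in library 1, and Pmvk and Ebp stand out from it.

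In the mevalonate steps, Hmgcs1 read 75.3, 107, 75.9 and 77.8 CPM in Dmp1KO libraries 1 to 4, against 168, 135, 166 and 167 CPM in WT. Each Dmp1KO library was thus below each WT library, and library 2 was the highest of its group. The change was 0.528-fold, a log2 change of -0.92 ± 0.21 (SE, adjusted p = 0.00432, edgeR). Idi1, the isomerase that interconverts the isoprenoid building blocks, read 12.4, 25.5, 20.0 and 23.0 CPM in Dmp1KO, against 41.9, 35.9, 48.05 and 47.8 CPM in WT. Its log2 change of -1.10 ± 0.25 (SE, adjusted p = 0.00453, edgeR) was the most negative of the 28. Mvd, which decarboxylates mevalonate diphosphate, read 7.15, 5.99, 6.73 and 6.78 CPM in Dmp1KO, against 9.85, 10.9, 12.3 and 12.5 CPM in WT, with no overlap and a log2 change of -0.77 ± 0.15 (SE, adjusted p = 0.00179, edgeR). Fdps, whose product leads to both sterols and prenylated proteins, read 15.6, 22.3, 23.3 and 23.0 CPM in Dmp1KO, against 34.3, 29.5, 29.8 and 30.5 CPM in WT, with a log2 change of -0.56 ± 0.16. Acat2, the cytosolic thiolase at the head of the pathway, had 5.87 to 6.76 CPM in Dmp1KO and 8.99 to 9.98 CPM in WT, a 0.677-fold change. The 2 kinases between Hmgcs1 and Mvd were not called. Mvk had 8.17 to 11.9 CPM in Dmp1KO and 11.4 to 13.3 CPM in WT (log2 change -0.20 ± 0.11, adjusted p = 0.154, edgeR), and Pmvk had 4.67 to 6.21 CPM in Dmp1KO and 3.80 to 4.85 CPM in WT (log2 change 0.33 ± 0.14, adjusted p = 0.0767, edgeR).

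In the steps from squalene onward, the 3 enzymes that act in turn to remove the methyl groups at carbon C4 of the sterol ring were all lower, whereas Cyp51, which removes another methyl group, was not called. Nsdhl, the dehydrogenase of that set, read 10.6, 10.8, 11.5 and 10.9 CPM in Dmp1KO, against 21.4, 17.8, 22.02 and 23.4 CPM in WT, a 0.519-fold change (log2 -0.95 ± 0.17 SE, adjusted p = 0.00118, edgeR). Its Dmp1KO libraries lay within 1 CPM of each other and far from the lowest WT library. Hsd17b7, the keto-reductase of the set, read 22.3, 32.4, 30.4 and 31.6 CPM in Dmp1KO, against 53.5, 58.2, 53.6 and 56.0 CPM in WT, a 0.527-fold change. Msmo1, the oxygenase that starts the removal, read 28.3, 35.4, 31.6 and 31.0 CPM in Dmp1KO, against 47.2, 41.2, 54.1 and 52.7 CPM in WT, a 0.647-fold change (log2 -0.63 ± 0.14 SE, adjusted p = 0.00469, edgeR). Lss, which closes the sterol rings to give lanosterol, read 20.7, 18.7, 20.1 and 20.7 CPM in Dmp1KO, against 30.2, 29.0, 30.1 and 29.0 CPM in WT. Both groups were tight and apart, and its log2 change of -0.56 ± 0.08 had the lowest adjusted p of the members (0.000233, edgeR). Fdft1, the squalene synthase, had a 0.711-fold change with 1 overlap between the groups, since Dmp1KO library 2 had 24.4 CPM and WT library 2 had 22.8 CPM. Sc5d, a sterol desaturase, had 31.6 to 40.1 CPM in Dmp1KO and 43.2 to 54.4 CPM in WT.

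The other 5 enzymes of these steps were not called. Cyp51, the lanosterol demethylase, read 46.8, 67.0, 55.4 and 71.9 CPM in Dmp1KO, against 85.5, 77.0, 83.1 and 91.1 CPM in WT. All its Dmp1KO libraries were below WT, but they were scattered, and the log2 change of -0.48 ± 0.19 had an adjusted p of 0.0615 (edgeR). Sqle, the squalene epoxidase often named as a rate-limiting step, had 28.05 to 48.1 CPM in Dmp1KO and 41.7 to 52.8 CPM in WT (log2 -0.25 ± 0.16). Tm7sf2 had a log2 change of -0.36 ± 0.17 and Dhcr7, the reductase of the last step, one of -0.20 ± 0.11. Ebp, a sterol isomerase, had a positive value, with 34.3, 42.8, 46.1 and 46.6 CPM in Dmp1KO against 38.6, 33.2, 37.01 and 33.3 CPM in WT (log2 0.26 ± 0.13, adjusted p = 0.126, edgeR). The calls of Fdft1 and Sc5d were each lost when any of WT library 1, 3 or 4 or Dmp1KO library 1, 3 or 4 was left out (adjusted p of 0.0138 to 0.0811 and of 0.0098 to 0.087 over the 16 single-library omissions, edgeR), and the other 12 calls held in all of them.

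**Figure D3:**
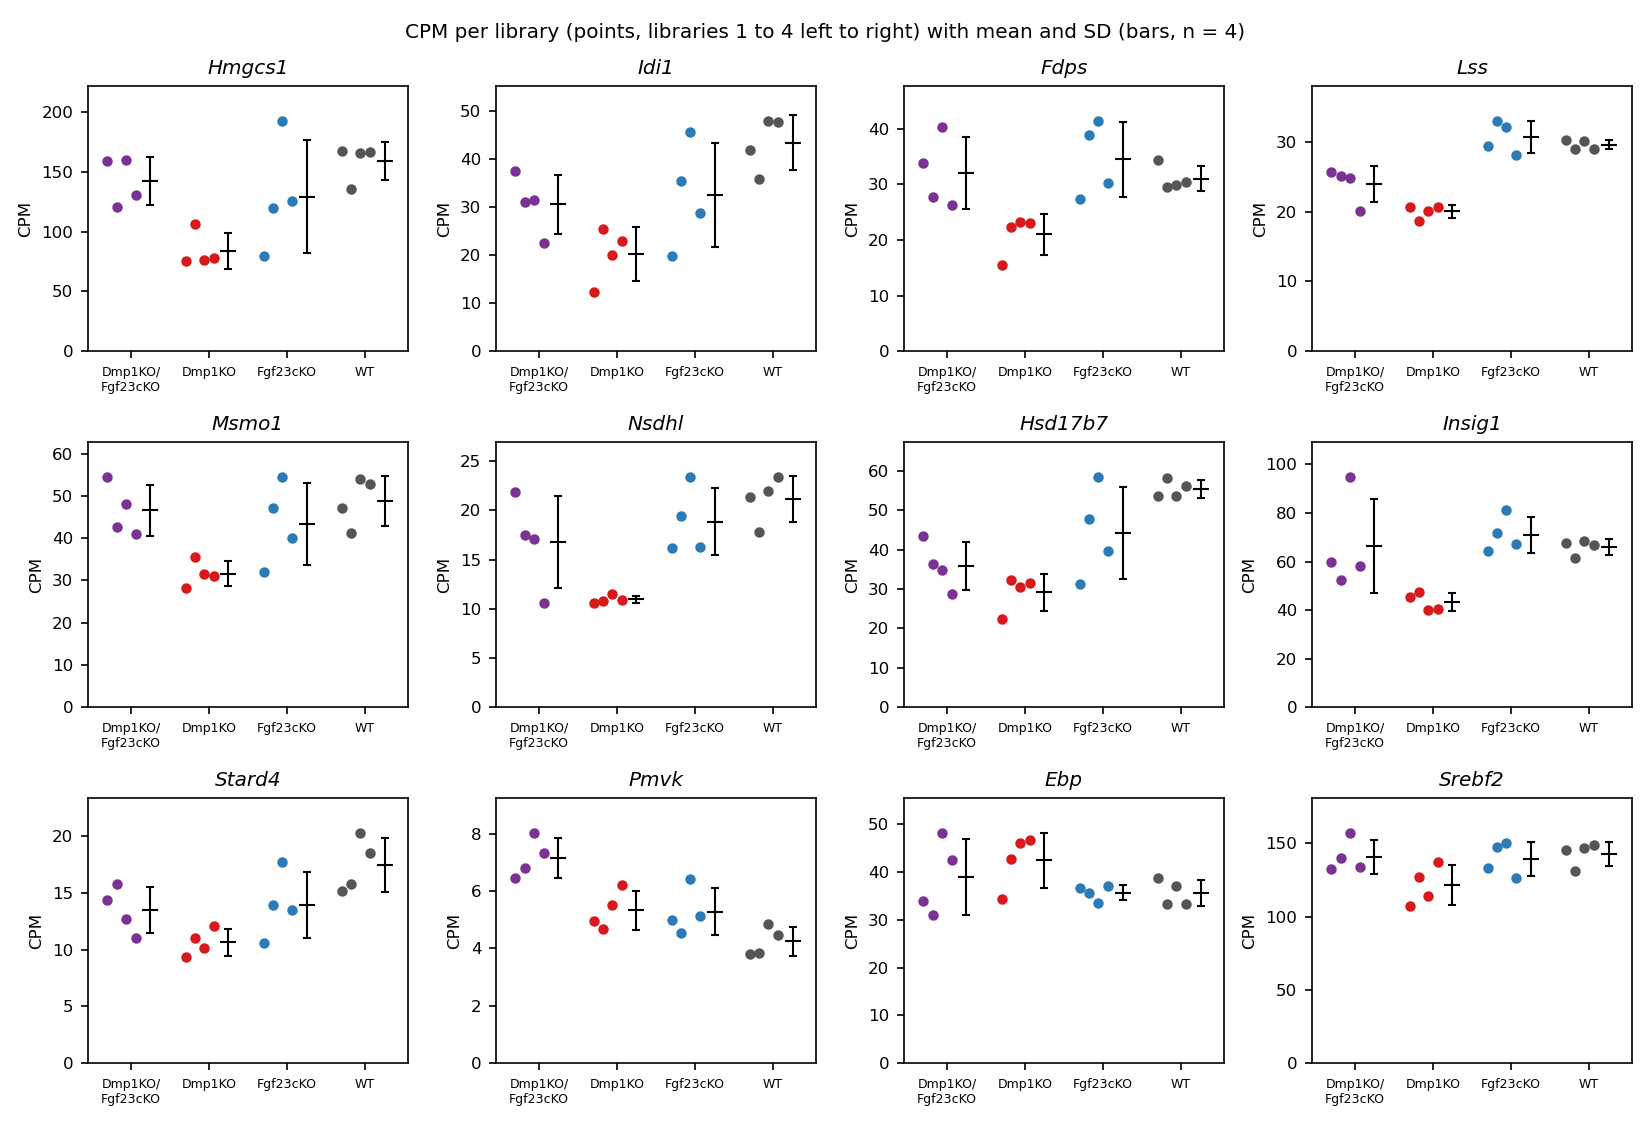
CPM of 12 of the 28 genes in each library, with points for libraries 1 to 4 and a bar for the mean and SD (n = 4) of each genotype, from Dmp1KO/Fgf23cKO on the left to WT on the right. The vertical axes start at 0. Dmp1KO has the lowest mean for Hmgcs1, Idi1, Fdps, Lss, Msmo1, Nsdhl, Hsd17b7, Insig1, Stard4 and Srebf2. Among these genes, Dmp1KO/Fgf23cKO and Dmp1KO overlap for Idi1, Lss, Nsdhl, Hsd17b7, Stard4 and Srebf2. Pmvk is highest in Dmp1KO/Fgf23cKO, and Ebp and Srebf2 overlap across genotypes.

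Among the fatty acid enzymes, Fasn, the synthase that makes palmitate, was the one called. It read 178, 200, 170 and 197 CPM in Dmp1KO, against 235, 226, 231 and 243 CPM in WT, a 0.797-fold change without overlap (log2 -0.33 ± 0.08 SE, adjusted p = 0.0069, edgeR). Acly, which makes cytosolic acetyl-CoA from citrate, had 119 to 141 CPM in Dmp1KO and 138 to 147 CPM in WT (log2 -0.12 ± 0.07). Acaca, which makes malonyl-CoA, and Elovl6, which lengthens palmitate, had log2 changes of -0.16 ± 0.09 and -0.09 ± 0.13. These 3 groups of values overlapped between the genotypes. Scd1 read 244, 187, 185 and 249 CPM in Dmp1KO, against 162, 133, 294 and 324 CPM in WT (log2 -0.08 ± 0.32). Scd2 read 488, 485, 466 and 455 CPM in Dmp1KO, against 442, 386, 356 and 380 CPM in WT, all above WT but not called (log2 0.28 ± 0.29, adjusted p = 0.486, edgeR). Scd1 and Scd2 are close relatives and how the counting software split reads between them is not known, so their single values are uncertain.

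The regulators and carriers were split. Insig1, which holds the SREBPs in the endoplasmic reticulum and is itself one of their targets, read 45.6, 47.3, 39.9 and 40.4 CPM in Dmp1KO, against 67.6, 61.4, 68.4 and 66.8 CPM in WT, a 0.656-fold change (log2 -0.61 ± 0.15 SE, adjusted p = 0.00591, edgeR). Stard4, a carrier of cholesterol between membranes, read 9.31, 11.03, 10.2 and 12.1 CPM in Dmp1KO, against 15.1, 15.8, 20.3 and 18.5 CPM in WT, a 0.611-fold change. Neither gene's groups overlapped. Srebf2, the SREBP gene tied mainly to sterol synthesis, had 107 to 138 CPM in Dmp1KO and 131 to 149 CPM in WT, with a log2 change of -0.23 ± 0.09 that just missed the call (adjusted p = 0.0504, edgeR). Srebf1, tied mainly to fatty acid synthesis, had 80.9 to 97.5 CPM in Dmp1KO and 74.3 to 81.7 CPM in WT (log2 0.14 ± 0.14).

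Genes of the same pathways outside the set were read from lists. Ggps1, which makes geranylgeranyl diphosphate from the product of Fdps, was lower in Dmp1KO with a 0.774-fold change (adjusted p = 0.00561, edgeR). None of the 4 genes of the SREBP processing machinery (retention, transport and cleavage) was called by edgeR. Their median log2 change was 0.13, and 0 of 4 had an unadjusted p under 0.05 by the same test. Of 17 tested genes of fatty acid and glycerolipid synthesis, 1 was higher (Acacb) and 3 were lower (Thrsp, Mlxipl and Fads1). Of 12 genes of cholesterol efflux and the LXR nuclear receptors, 2 were higher (Pltp and Mylip) and 1 was lower (Nr1h3).

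Markers of cell types also differed between these genotypes. Of 11 osteoblast markers 6 were higher and 1 (Dmp1) lower in Dmp1KO, with a summed level of 129730 to 140340 CPM in Dmp1KO against 51371 to 83787 CPM in WT. Of 12 macrophage markers 5 were lower and none higher, with sums of 3193 to 3729 CPM in Dmp1KO against 4522 to 5051 CPM in WT. Of 11 tested adipocyte markers 1 was higher and 2 were lower, and 8 had a negative log2 change, with a median of -0.62 over the list. Their sums were 736 to 1353 CPM in Dmp1KO against 505 to 655 CPM in WT. Lpl, 1 of the 3 with a positive change, gave 304 to 534 CPM of the Dmp1KO sums and 125 to 233 CPM of the WT sums. Cidec was at 0 in Dmp1KO libraries 2 and 3. Of 8 osteoclast markers 1 was lower by edgeR, and 7 had an unadjusted p under 0.05 by that test. Of the 8, 7 had a negative log2 change, with a median of -2.47 over the list. Their sums were 206 to 380 CPM in Dmp1KO against 222 to 615 CPM in WT, of which Ctsk gave 127 to 172 CPM and 138 to 242 CPM. None of 10 proliferation markers was called by edgeR (2 at an unadjusted p under 0.05). The part of these markers in the result on the 28 genes was not tested.

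Dmp1KO/Fgf23cKO was compared with Dmp1KO to ask what loss of Fgf23 did in cells without Dmp1. No member was called by edgeR, and only 3 of all tested genes, or 0.0183%, were called in this comparison. By the same test 15 members had an unadjusted p under 0.05, and the share of all tested genes at that level was not counted. DESeq2 called 5 members higher (Hmgcs1, Fdps, Msmo1, Dhcr7 and Insig1) and none lower, against 0.755% of genes called higher by that tool. The values leaned to one side, and 25 of 28 members had a positive log2 change. The median was 0.31 over the members and 0.40 over the 18 sterol pathway enzymes, against 0.01 over all tested genes. The Dmp1KO libraries are those of the comparison with WT, so low values in Dmp1KO enter both comparisons and raise these changes. For 9 members every Dmp1KO/Fgf23cKO library lay above every Dmp1KO library, which held for 1.66% of all tested genes.

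In Dmp1KO/Fgf23cKO libraries 1 to 4, Insig1 had 59.9, 52.4, 95 and 58.2 CPM, against the 39.9 to 47.3 CPM of Dmp1KO, and had the lowest adjusted p of the members (log2 0.62 ± 0.15, adjusted p = 0.203, edgeR). Hmgcs1 read 159, 120, 160 and 130 CPM in Dmp1KO/Fgf23cKO, against 75.3 to 107 CPM in Dmp1KO, with a log2 change of 0.76 and an interval of 2 SE from 0.35 to 1.17. Msmo1 read 54.6, 42.7, 48.02 and 40.9 CPM in Dmp1KO/Fgf23cKO, against 28.3 to 35.4 CPM in Dmp1KO (log2 0.56, interval 0.27 to 0.85). In these 3 genes the groups did not overlap. Fdps read 33.9, 27.7, 40.3 and 26.3 CPM in Dmp1KO/Fgf23cKO, against 15.6 to 23.3 CPM in Dmp1KO (log2 0.61, interval 0.28 to 0.93). Mvd read 12.1, 10.8, 8.69 and 7.44 CPM in Dmp1KO/Fgf23cKO, against 5.99 to 7.15 CPM in Dmp1KO (log2 0.55, interval 0.25 to 0.86). Dhcr7 read 23.2, 22.8, 32.5 and 25.9 CPM in Dmp1KO/Fgf23cKO, against 17.2 to 21.7 CPM in Dmp1KO (log2 0.41, interval 0.20 to 0.63). Acat2, Pmvk and Sc5d, with Fdps, Mvd and Dhcr7, completed the 9 members without overlap. Nsdhl was scattered, with 21.9, 17.5, 17.1 and 10.6 CPM in Dmp1KO/Fgf23cKO against 10.6 to 11.5 CPM in Dmp1KO, and library 4 fell to the Dmp1KO level. The 6 fatty acid enzymes had log2 changes from -0.08 for Elovl6 to 0.17 for Scd2, and Ebp had one of -0.13 ± 0.13. Macrophage markers summed to 2846 to 5385 CPM in Dmp1KO/Fgf23cKO against 3193 to 3729 CPM in Dmp1KO, with 11 of 12 positive log2 changes, and osteoclast markers to 329 to 833 CPM in Dmp1KO/Fgf23cKO against 206 to 380 CPM in Dmp1KO, with 8 of 8 positive. Adipocyte markers had 9 of 11 positive log2 changes. Osteoblast markers had 2 of 11 positive (median -0.31) and proliferation markers 0 of 10 (median -0.32). No marker of these lists was called by edgeR. At an unadjusted p under 0.05 by that test stood 2 macrophage, 6 osteoclast, 0 adipocyte, 1 osteoblast and 0 proliferation markers. The part of these markers in the values of the 28 genes was not tested.

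The pairs of Dmp1KO/Fgf23cKO libraries were read apart. The median over the 18 sterol pathway enzymes of log2 CPM minus the WT mean of log2 CPM was 0.01, -0.19, 0.05 and -0.26 in Dmp1KO/Fgf23cKO libraries 1 to 4, against -0.71, -0.46, -0.58 and -0.51 in Dmp1KO, so each Dmp1KO/Fgf23cKO library lay above each Dmp1KO library in both pairs. With libraries 3 and 4 left out, edgeR called 7 members higher (Mvd, Fdps, Lss, Msmo1, Nsdhl, Insig1 and Stard4) and 2 lower (Ebp and Scd2), where 12.9% and 12% of genes were called in those directions. With libraries 1 and 2 left out, 1 member (Insig1) was called higher and none lower, where 0.0472% of genes were higher. The median log2 change of the members was 0.30 without libraries 3 and 4 and 0.27 without libraries 1 and 2. Scd2 went with the pairs, with 352 and 242 CPM in libraries 1 and 2 and 914 and 617 CPM in libraries 3 and 4, and Scd1 likewise with 163 and 110 against 349 and 223 CPM. Srebf1 had 123 CPM in library 3 and 72.3 to 84.0 CPM in the other 3.

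**Figure D4:**
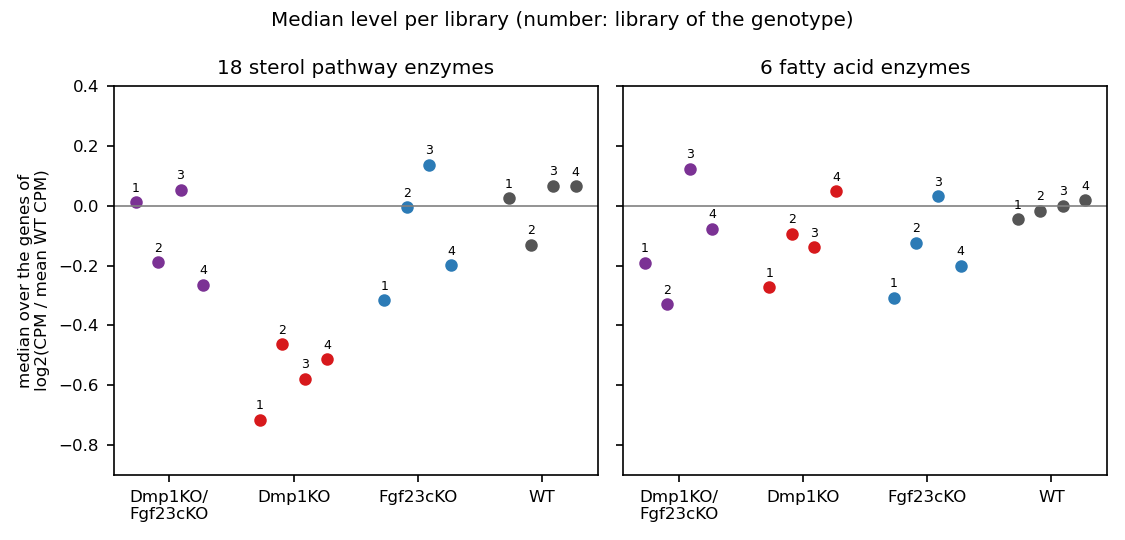
Median over the 18 sterol pathway enzymes (left) and the 6 fatty acid enzymes (right) of log2 CPM minus the mean log2 CPM of WT in each library, numbered within its genotype. The horizontal axis gives the genotypes from Dmp1KO/Fgf23cKO to WT. The Dmp1KO libraries lie between -0.71 and -0.46 on the left, below all other libraries, and overlap with the other genotypes on the right.

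Dmp1KO/Fgf23cKO was also compared with WT, which shares its WT libraries with the comparison of Dmp1KO with WT. Of the 28 members, 1 was higher and 2 were lower by edgeR, where 7.72% of all tested genes were higher and 3.63% lower. Pmvk, the phosphomevalonate kinase, read 6.44, 6.79, 8.03 and 7.32 CPM in Dmp1KO/Fgf23cKO, against 3.80, 3.84, 4.85 and 4.48 CPM in WT, a 1.68-fold change (log2 0.75 ± 0.14 SE, adjusted p = 0.00356, edgeR). Every Dmp1KO/Fgf23cKO library was above every WT library, and the call held with any single library or either pair left out. Hsd17b7 read 43.4, 36.3, 34.8 and 28.7 CPM in Dmp1KO/Fgf23cKO, against 53.5 to 58.2 CPM in WT (log2 -0.63 ± 0.17, adjusted p = 0.0258, edgeR), and Lss read 25.7, 25.05, 24.8 and 20.1 CPM against 29.0 to 30.2 CPM (log2 -0.31 ± 0.08, adjusted p = 0.0228, edgeR). Both genes stood between Dmp1KO and WT. Acat2 and Fasn were the other members with all Dmp1KO/Fgf23cKO libraries below WT, a pattern of 4 members and of 7.89% of all tested genes, and neither was called (log2 -0.26 ± 0.13 and -0.17 ± 0.08).

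Of the 18 sterol pathway enzymes, 15 were not called in Dmp1KO/Fgf23cKO against WT. Hmgcs1 had a log2 change of -0.16 against WT in Dmp1KO/Fgf23cKO and of -0.92 in Dmp1KO, Msmo1 -0.07 and -0.63, Fdps 0.05 and -0.56, and Fdft1 -0.04 and -0.49. For these genes the interval of 2 SE around the Dmp1KO/Fgf23cKO value included 0, with bounds of -0.57 to 0.25 for Hmgcs1 and -0.35 to 0.22 for Msmo1. Idi1 was intermediate, with 37.5, 31.1, 31.5 and 22.5 CPM in Dmp1KO/Fgf23cKO and a log2 change of -0.50 ± 0.24 (adjusted p = 0.199, edgeR). Insig1 averaged 66.4 ± 19.4 CPM in Dmp1KO/Fgf23cKO and 66.1 ± 3.18 CPM in WT (SD, n = 4 each), and Stard4 13.5 ± 2.06 CPM and 17.4 ± 2.40 CPM.

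The 2 lower calls against WT depended on the libraries used. Lss was lost when only the 2 groups were fitted (adjusted p = 0.0619, edgeR) and without WT library 1, 3 or 4 or Dmp1KO/Fgf23cKO library 4, and Hsd17b7 without WT library 2 or 4 or Dmp1KO/Fgf23cKO library 3 or 4 (highest adjusted p 0.0705 and 0.0915, edgeR). With Dmp1KO/Fgf23cKO libraries 1 and 2 left out, 5 members were higher (Pmvk, Ebp, Dhcr7, Scd2 and Srebf1) and 5 lower (Mvd, Lss, Nsdhl, Hsd17b7 and Stard4), where 17.2% and 17.4% of genes were called in those directions, and with libraries 3 and 4 left out, Pmvk was the 1 call, where 3.12% of genes were higher.

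**Figure D5:**
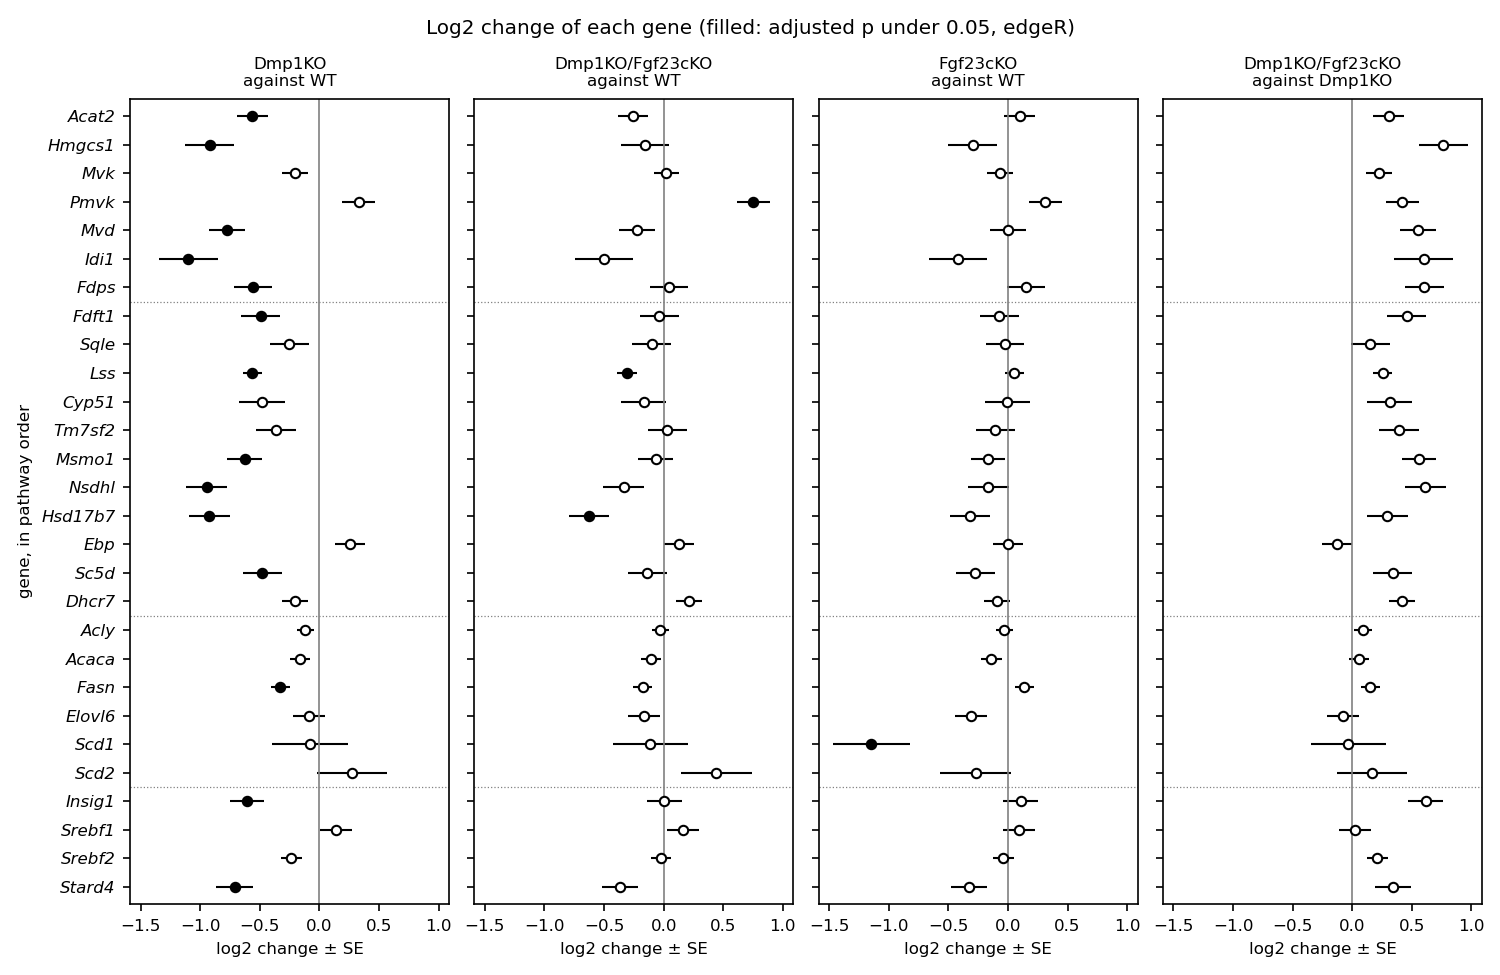
Log2 change and SE of each of the 28 genes in 4 comparisons, with genes in pathway order from top to bottom and filled points for an adjusted p under 0.05 (edgeR). The left panel, Dmp1KO against WT, has 14 filled points, all negative, and the right panel, Dmp1KO/Fgf23cKO against Dmp1KO, has none, with 25 of 28 values above 0.

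Fgf23cKO was compared with WT to ask what loss of Fgf23 did in cells with intact Dmp1. Of the 28 members, 1 was lower and none higher, where 4.72% of all tested genes were lower and 6.68% higher, and none of the 18 sterol pathway enzymes was called by edgeR (1 at an unadjusted p under 0.05) or DESeq2. Scd1 read 106, 98.1, 114 and 94.97 CPM in Fgf23cKO, against 162, 133, 294 and 324 CPM in WT, a 0.452-fold change (log2 -1.15 ± 0.32 SE, adjusted p = 0.0328, edgeR). The groups did not overlap, but WT fell into 2 higher and 2 lower libraries, and the call was lost without WT library 3 or 4, without any 1 Fgf23cKO library and with no filter on low counts (adjusted p of 0.0154 to 0.112 over the single-library omissions, edgeR). Adipocyte markers differed in the same samples, with 3 of 11 lower and 9 of 11 log2 changes negative (median -0.84). Their sums were 559 to 687 CPM in Fgf23cKO against 505 to 655 CPM in WT, of which Lpl gave 150 to 226 CPM and 125 to 233 CPM. Cidec was at 0 in Fgf23cKO library 4. The part of these markers in the result on Scd1 was not tested.

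The SD between libraries was larger in Fgf23cKO than in WT for 15 of the 18 sterol pathway enzymes. It was larger in Dmp1KO/Fgf23cKO than in WT for 18 of 18, and larger in Dmp1KO than in WT for 11 of 18. The share of all tested genes with a larger SD was not counted. A chi-square per gene over the tested genes, larger where 2 libraries differ more, was 61.4 to 874.5 between Dmp1KO/Fgf23cKO libraries. It was 27.5 to 158.2 within Fgf23cKO, 25.2 to 158.4 within Dmp1KO and 29.7 to 90.7 within WT. Whether the enzymes spread more than other genes was not tested. Hmgcs1 read 79.6, 120, 193 and 125 CPM in Fgf23cKO, against 168, 135, 166 and 167 CPM in WT, and averaged 129 ± 46.9 CPM in Fgf23cKO and 159 ± 15.7 CPM in WT (SD, n = 4 each). Its library 1 was close to the Dmp1KO level and its library 3 was the highest of the 16. Cyp51 likewise read 52.9, 92.4, 115 and 74.6 CPM, and Sc5d 27.3, 46.2, 53.4 and 37.3 CPM, with library 1 lowest and library 3 highest in both. Across the 18 enzymes, Fgf23cKO libraries 1 and 4 were each below the WT mean in 14, library 2 in 9 and library 3 in 4. WT library 2 was itself below the WT mean in 17. Elovl6 was the other member with all Fgf23cKO libraries below WT (log2 -0.31 ± 0.14, adjusted p = 0.146, edgeR), a pattern that 12% of all tested genes had. The median log2 change over the 28 members was -0.07, against -0.01 over all tested genes.

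The interaction asks whether the change on Fgf23 loss differed between cells without and with Dmp1, and is the log2 change of Dmp1KO/Fgf23cKO against Dmp1KO minus that of Fgf23cKO against WT. Of the 28 members, 2 were called, both positive, where 2.9% of all tested genes were called positive and 4.72% negative. For Hmgcs1 the log2 change on Fgf23 loss was 0.76 without Dmp1 and -0.30 with Dmp1, a difference of 1.06 ± 0.29 (SE, adjusted p = 0.0402, edgeR). For Msmo1 it was 0.56 without Dmp1 and -0.17 with Dmp1, a difference of 0.73 ± 0.20 (SE, adjusted p = 0.0415, edgeR). Among the 15 sterol pathway enzymes with a window, these are also the 2 whose promoter held the SRE-like word. That was observed after both results were known. DESeq2 also called Idi1, Nsdhl and Dhcr7, whose windows did not hold the word, and Stard4, which had no window. The difference of log2 changes was positive in 26 of the 28 members, with a median of 0.44 against 0.03 over all tested genes, and negative for Ebp and Srebf1. It draws on the same Dmp1KO and WT libraries, so it is not independent of the lower values in Dmp1KO against WT.

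Both interaction calls depended on single libraries. Hmgcs1 was called in 7 and Msmo1 in 6 of the 16 omissions of 1 library (highest adjusted p 0.0822 and 0.0889, edgeR), and without Dmp1KO/Fgf23cKO libraries 3 and 4 there were 7 positive calls (Hmgcs1, Mvd, Idi1, Msmo1, Nsdhl, Hsd17b7 and Stard4) and 1 negative call (Srebf1), where 12.9% of genes were positive and 13.6% negative. Without libraries 1 and 2 there were 4 positive calls (Dhcr7, Scd1, Scd2 and Insig1), where 2.21% of genes were positive. DESeq2 called 6 members positive (Hmgcs1, Idi1, Msmo1, Nsdhl, Dhcr7 and Stard4), where it called 6.31% of genes.

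Correlations among the sterol pathway enzymes were read across the 16 libraries, without a reference from other pairs of genes. The median Pearson correlation of log2 CPM over their 153 pairs was 0.59, from -0.71 to 0.95, and it was 0.39 once each genotype's mean had been subtracted. Msmo1 followed the mean of the 18 enzymes most closely (r = 0.95), followed by Fdft1 and Idi1 (r = 0.93 and 0.92), and Pmvk, Ebp and Dhcr7 least (r = -0.05, -0.34 and 0.34). After subtraction Idi1, Msmo1 and Fdft1 still had r of 0.90, 0.90 and 0.89, and Dhcr7 one of -0.07. Of the other members, Srebf2 had an r of 0.87 with this mean, Stard4 0.86, Insig1 0.82, Acly 0.78 and Fasn 0.75, whereas Srebf1, Scd1 and Scd2 had -0.21, -0.04 and -0.05. With each genotype's mean subtracted, r was -0.08 for Srebf1, 0.30 for Scd1, 0.34 for Scd2 and 0.38 for Pmvk. The median over the 108 pairs of a fatty acid enzyme with a sterol pathway enzyme was then 0.39, against 0.29 before subtraction. The sterol pathway enzymes had the same rounded median of 0.39 among themselves after subtraction. Scd2 had r of 0.68 with both Ebp and Scd1 and of 0.63 with Srebf1. These correlations are descriptions over 16 libraries that share culture, scaling and, within a genotype, possibly an animal, and each enzyme was left out of the mean it is set against.

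Some members share exon bases with another annotated gene, and no source used here says whether the counting took strand into account. The largest shared fractions were 26.7% of the exon bases of Fdps with Gm43738 on the same strand, 18.3% of Fdft1 with Ctsb on the opposite strand, 12.1% of Hmgcs1 with the antisense gene Gm48342, 12.1% of Tm7sf2 with Vps51 on the same strand and 9.22% of Idi1 with Gm48574 on the opposite strand. Reads in those bases cannot be assigned with certainty, so the values of these 5 genes are less certain than those of Lss, Nsdhl, Msmo1 and Hsd17b7, which share under 4% or none.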

How the data were processed

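RNA from 16 cultures of bone marrow stromal cells, 4 per genotype, was sequenced by the authors with a total RNA kit and paired reads. The authors mapped reads to the mouse transcriptome and genome (mm10) with StrandNGS and deposited expected counts per gene, of which 33.4% were not whole numbers (version, annotation and strand setting: not given in the sources used here). Deposited tables of normalized log2 values (DESeq) and of the authors' own fold changes and p-values were not used. Genotypes came from the sample labels, and library numbers follow listing order. Expected counts were rounded and tested with edgeR 4.0.16 in R 4.3.3 (TMM scaling, quasi-likelihood F test with robust dispersion, filterByExpr with a minimum count of 10 and a minimum total of 15), with all 16 libraries in 1 fit and 5 contrasts. P-values were adjusted by Benjamini-Hochberg over 16430 genes, and calls were made below an adjusted p of 0.05. SE is the absolute log2 change over the square root of F, and intervals are 2 SE to either side. Depth was 61.9 M to 79.5 M per library. On simulated counts with 1 common dispersion for all genes, the test called 68.5% of the genes given a 2-fold change. The simulated libraries were independent, so this check does not cover libraries that stand in pairs or share an animal. All 28 members are named in every comparison where the text allows it, up to 4 called genes of each other list may be named, and Dmp1 and Fgf23 are named as the targeted genes. The members and lists were chosen with earlier results of these data known. Alternatives were size factors by relative log expression (RLE), no count filter, DESeq2 1.42.0, limma 3.58.1 on log2(CPM + 1), a fit of only the 2 groups compared, and omission of each library. No pair of libraries came near sampling noise. Positions, exons and promoters are from RefSeq and GENCODE annotation of GRCm38, the assembly of mm10. Some genes of the sterol list are not reported here.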

Additional observations from a re-analysis of the deposited data

Results flagged for a closer look

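Of 112 sets of 4 libraries (28 genes in 4 genotypes), 6 held a library far from the other 3 by Dixon's criterion, which flags about 1 set in 20 by chance. Hmgcs1 stood at 107 CPM in Dmp1KO library 2, against 75.3 to 77.8 CPM in the other Dmp1KO libraries, and at 135 CPM in WT library 2, against 166 to 168 CPM. Fdps stood at 15.6 CPM in Dmp1KO library 1, against 22.3 to 23.3 CPM. Lss and Fasn were both low in Dmp1KO/Fgf23cKO library 4, the library with the lowest total, with 20.1 CPM against 24.8 to 25.7 CPM and 183 CPM against 214 to 217 CPM. Srebf1 stood at 96.6 CPM in Fgf23cKO library 1, against 78.2 to 81.0 CPM. The change on Fgf23 loss differed between cells without and with Dmp1 for Hmgcs1 (difference of log2 changes 1.06) and Msmo1 (0.73), by the interaction test in edgeR.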

How the results depend on the processing

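The count of called members in Dmp1KO against WT was 14 to 17 under other scaling, filter, tool or group choices (15 with RLE or limma, 16 with DESeq2, and 17 with only the 2 groups fitted, of which 1 was higher) and 12 to 15 when 1 library was left out, and the median log2 change stayed between -0.48 and -0.37. With 1 library left out the count of called members ran from 0 to 1 in Fgf23cKO against WT, from 1 to 3 in Dmp1KO/Fgf23cKO against WT and from 0 to 5 in the interaction, and was 0 throughout in Dmp1KO/Fgf23cKO against Dmp1KO. Without the count filter, 0 members were called in Fgf23cKO against WT and 1 in the interaction, and with only the 2 groups fitted 2 were called in Fgf23cKO against WT. DESeq2 called 5 members in Dmp1KO/Fgf23cKO against Dmp1KO and 6 in the interaction. With Dmp1KO/Fgf23cKO libraries 1 and 2 left out, chosen after seeing the data, 10 members were called in Dmp1KO/Fgf23cKO against WT, 1 against Dmp1KO and 4 in the interaction, and with libraries 3 and 4 left out 1, 9 and 8. The cause of these differences was not tested. Medians with 1 library left out ran from -0.13 to -0.03 in Fgf23cKO against WT, from -0.19 to -0.03 in Dmp1KO/Fgf23cKO against WT, from 0.26 to 0.38 in Dmp1KO/Fgf23cKO against Dmp1KO and from 0.28 to 0.51 in the interaction. No gene called with all 16 libraries and edgeR as described changed direction under these alternatives. Scd2 in Dmp1KO/Fgf23cKO against Dmp1KO, with a log2 change of 0.17 and not called with all libraries, was called at -0.67 without libraries 3 and 4 (adjusted p = 0.0153, edgeR). No paired analysis was possible because the labels carry no replicate numbers that tie libraries of different genotypes.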
